A study of Mus musculus with 2 samples.

Results

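The insulin-like growth factor (IGF) genes were followed in MCMs, cultured mouse cardiomyocytes, in which *Ppp2r5d* was knocked down. This gene encodes B56δ, a regulatory subunit of the serine/threonine phosphatase PP2A. The group held 10 genes, namely the ligands *Igf1* and *Igf2*, the receptor *Igf1r*, and the binding proteins *Igfbp1* to *Igfbp7*. They were chosen by the gene name that the array gives each probe, and made up 10 of the 37074 gene names on the array and 19 of its 56605 probes. Both cultures were kept in DMEM with 2% fetal bovine serum and were transfected with the RNAiMAX reagent, 1 with a negative control siRNA (siRNA-NC) and 1 with an siRNA against *Ppp2r5d* (siRNA-*Ppp2r5d*). Both were moved to glucose-free medium 48 h after transfection and collected at 64 h, so that the withdrawal of glucose was common to the control and the knockdown. The RNA of each was labelled with Cyanine 3 and hybridised to 1 Agilent array. With 1 array per condition there was no spread between cultures to set a difference against, and no test was possible. Every difference below is between those 2 arrays, and the effect of the knockdown cannot be told apart from a chance difference between the 2 cultures.

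IGF1 and IGF2 are secreted peptides related to insulin. Both activate IGF1R, a receptor tyrosine kinase, which signals through the IRS adaptors to PI3K and AKT and supports growth and survival of cardiac muscle cells. The IGF binding proteins hold the ligands outside the cell, and depending on the protein and on its cleavage by proteases they keep the ligands from the receptor or deliver them to it. IGFBP7 is the distant relative of the family and binds IGFs weakly.

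Each value stands for the stretch of transcript that its probe matches, and the probes behind the largest differences are shown first, 5′ to 3′. The array file places them on mouse build mm9, and the exon or UTR they lie in was not analysed here. The *Igfbp2* probe, at chr1:72898677-72898736 on the plus strand, is shown whole because it was the single probe for the largest difference among these genes. It has 1 reading frame that runs through 19 codons and ends in the stop codon given in capitals:
Igfbp2: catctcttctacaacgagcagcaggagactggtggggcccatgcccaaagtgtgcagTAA
The first 30 of 60 bases are shown for the probes of *Igf1*, which gave different values. They lie on the plus strand of chromosome 10, at chr10:87393516-87393575 (named for transcript variant 1), chr10:87378456-87378515 (variant 2) and chr10:87325382-87325441 (a cDNA clone):
Igf1 variant 1: cgcaggatcctttgctgcttgagcaacctg
Igf1 variant 2: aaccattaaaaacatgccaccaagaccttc
Igf1 cDNA clone: taaaatagttgagtaaaatttgccactgat
The same length is shown for the probes of *Igfbp5* and *Igfbp3*, the members with the largest differences towards siRNA-*Ppp2r5d*. All 4 lie on the minus strand, those of *Igfbp5* at chr1:72904829-72904888 (probe 1) and chr1:72904506-72904552 (probe 2, for which the file gives 47 bases) and those of *Igfbp3* at chr11:7106193-7106252 (probe 1) and chr11:7107949-7108008 (probe 2):
Igfbp5 probe 1: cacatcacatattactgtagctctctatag
Igfbp5 probe 2: tttagcattttggtacttaaggaaataaaa
Igfbp3 probe 1: gagctttccttgagagcacaaaggaatctc
Igfbp3 probe 2: ggagaacctggcatatttggtttctgaatt
The longest run of bases that probes of different members shared was 10, between *Igfbp4* and *Igfbp3*.

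The arrays were alike in depth. Of 59305 spots on each, 35544 (siRNA-NC) and 35174 (siRNA-*Ppp2r5d*) were well above background, none was saturated, and the 75th percentile of intensity was 592 and 518 in that order. Log2 fold changes are siRNA-*Ppp2r5d* minus siRNA-NC after this percentile was subtracted on each array, and probes of a gene were averaged. Intensities are printed before that scaling, so a probe with a log2 fold change of 0 reads lower on the siRNA-*Ppp2r5d* array, by 0.19 on the log2 scale. The error beside a value is the one the scanner software gives for a spot, or for several probes the error of their mean. For bright probes the spot error was a nearly fixed share of the intensity. Their log2 fold changes therefore all carry the same error, about 0.20, which does not measure a spread between spots. The error of a mean is built from the spot errors alone and leaves out how far the probes disagree. Neither error holds any spread between cultures. Each IGF probe was 1 spot. For 293 other probes with 5 to 10 spots in use, the SD of the log2 fold change between spots had a median of 0.036. The targeted gene *Ppp2r5d* went with the labels, at 4701 ± 470 in the control and 676 ± 67.7 after its knockdown, 6.09-fold lower. The cardiomyocyte label was borne out in part. Both arrays measured 8 of 14 cardiomyocyte markers well above background, and neither measured *Actn2*, *Myl2*, *Myl7* or *Pln*. A probe of *Myh6* (12.4 in the control and 14.3 in the knockdown) was above background in the knockdown alone. The same held for a probe of *Ryr2* (8.09 and 19.3), and both were dim. Of the 8, *Myh7* (48.1 in the control and 42.8 in the knockdown), *Tnni3*, *Myl3* and *Nppa* were dim. *Actc1* was the brightest, at 6443 and 5268. Of 10 fibroblast markers 8 were measured as well, and several were brighter than *Actc1*. The brightest of these probes, for *Col1a2*, gave 147519 and 134481.

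**Figure D1:**
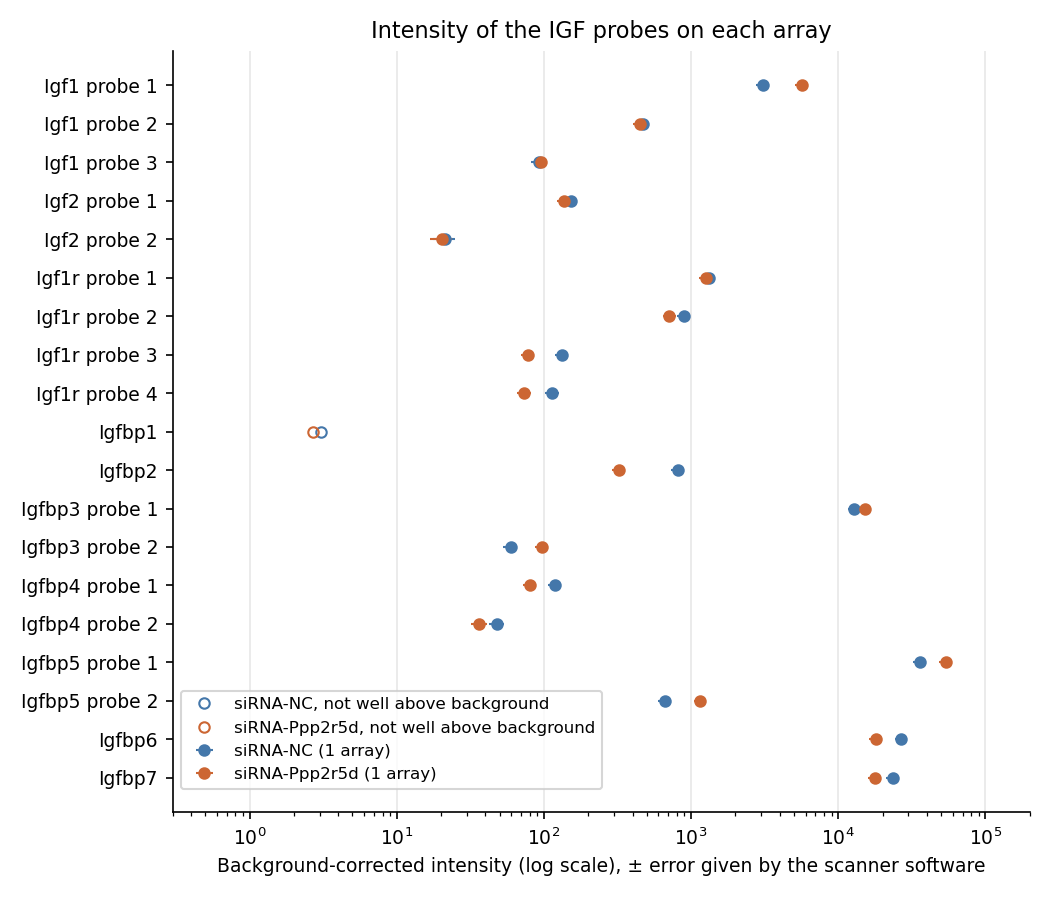
Background-corrected intensity (log axis) of each of the 19 IGF probes on the siRNA-NC and siRNA-*Ppp2r5d* arrays, with the error given by the scanner software as bars; open circles are values not well above background. *Igfbp2* is lower and both *Igfbp5* probes are higher for siRNA-*Ppp2r5d*, and of the *Igf1* probes the first, for variant 1, is clearly apart.

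As the plot of probe intensities shows, both arrays measured 18 of the 19 probes well above background, and 9 of the 10 genes could be compared. Of these 9, *Igfbp2* alone was past 2-fold, and it was lower. Of the 21638 genes that 1 or both arrays measured well above background, 2.44% were past 2-fold, 1.01% higher and 1.42% lower. These shares include genes measured on 1 array only, whose fold is a lower limit, while the 9 members were measured on both. At 1.5-fold 3 of the 9 were called, *Igfbp5* and *Igfbp3* higher and *Igfbp2* lower, where 9.17% of all genes were, 3.79% higher and 5.38% lower. The log2 fold change was above 0 in 4 members and below 0 in 5. Their median was -0.22, against 0.025 over the 20311 genes measured on both arrays. The genes for the family thus stood on both sides, and no common direction was seen.

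Among the ligands, the probes of *Igf1* gave different values. They are named here for the transcript record the array file gives, and whether each detects that variant alone was not analysed. The probe for variant 1 gave 3058 ± 306 with siRNA-NC and 5638 ± 564 with siRNA-*Ppp2r5d* (values are given in this order throughout), a log2 fold change of 1.07 ± 0.20 (2.11-fold higher). The probe for variant 2 gave 472 ± 47.3 and 447 ± 44.8, a log2 fold change of 0.11 ± 0.20. The cDNA clone probe gave 91.9 ± 9.67 and 95.7 ± 9.95, a log2 fold change of 0.25 ± 0.21. Only the variant 1 probe was thus past 2-fold, and its log2 fold change exceeded that of variant 2 by 0.96 ± 0.29. A single scaling factor per array cannot move this difference, but normalization that depends on brightness can. After quantile normalization the variant 1 probe was at 1.02 and the variant 2 probe at 0.13. Averaged over the 3 probes, *Igf1* was at 0.48 ± 0.12 (1.39-fold higher), and the gene's call depends on which probe is taken. Of 31610 probes measured on both arrays, 1.81% were past 2-fold (0.816% higher and 0.997% lower), and of the 18 IGF probes 2 were, this one higher and that of *Igfbp2* lower. *Igf2*, the ligand that dominates before birth, was nearly level. Its probes gave 152 ± 15.5 and 136 ± 13.9 at chr7:149837115-149837174, and 21.3 ± 3.72 and 20.3 ± 3.41 at chr7:149839661-149839720. The second pair lies close to the lowest signal well above background, 14.9 and 13.5. The mean log2 fold change of *Igf2* was 0.079 ± 0.20, and it turned to -0.13 when the arrays were scaled to their spike-in probes.

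*Igf1r*, the receptor of both ligands, had 4 probes on the plus strand of chromosome 7, and they did not give 1 direction. The probes named for the mRNA gave 1327 ± 133 and 1263 ± 126 (chr7:75371371-75371430), and 896 ± 89.7 and 713 ± 71.3 (chr7:75371556-75371615). Their log2 fold changes were 0.12 and -0.14. The probes named for cDNA clones gave 132 ± 13.5 and 77.9 ± 8.26 (chr7:75332796-75332855), and 114 ± 11.8 and 73.6 ± 7.85 (chr7:75332515-75332574). Their log2 fold changes were -0.57 and -0.44, both lower for siRNA-*Ppp2r5d*. The cDNA clone probes averaged -0.50 and the mRNA probes -0.0091, a difference of -0.50 ± 0.21. Over all 4 probes *Igf1r* was at -0.26 ± 0.10, a value whose size comes from the clone probes. With the single brightest probe it was 0.12.

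The binding proteins spread furthest. *Igfbp2*, whose product is abundant in fetal tissue and also binds integrins, was at 809 ± 81.0 in the control and 321 ± 32.3 in the knockdown. Its log2 fold change was -1.14 ± 0.20 (2.21-fold lower), number 134 from the lowest of the 20311 genes. The value rests on the 1 probe shown above, and after normexp background correction it was -0.99, just under 2-fold. *Igfbp5*, which codes for a protein held in the extracellular matrix, went the other way on both of its probes. Probe 1 gave 35842 ± 3584 and 53790 ± 5379, a log2 fold change of 0.78 ± 0.20. Probe 2 gave 665 ± 66.5 and 1157 ± 116, a log2 fold change of 0.99 ± 0.20. The mean was 0.88 ± 0.14 (1.85-fold higher), number 253 from the highest.

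*Igfbp2* and *Igfbp5* are next to each other in the order of protein-coding genes on mouse chromosome 1, and their log2 fold changes were 2.03 ± 0.25 apart. Because they are neighbours that differed in opposite directions, the 250 bases before the start of each are shown from RefSeq, build GRCm38.p6, read along the gene's own strand (plus for *Igfbp2*, at chr1:72824230-72824479, and minus for *Igfbp5*, at chr1:72874866-72875115). Capitals mark the GC box letters GGGCGG:
Igfbp2 promoter: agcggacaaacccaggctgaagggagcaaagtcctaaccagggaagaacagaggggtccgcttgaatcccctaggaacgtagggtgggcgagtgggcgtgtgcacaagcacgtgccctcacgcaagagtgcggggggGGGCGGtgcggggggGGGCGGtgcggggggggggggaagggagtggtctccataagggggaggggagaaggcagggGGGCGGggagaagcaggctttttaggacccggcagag
Igfbp5 promoter: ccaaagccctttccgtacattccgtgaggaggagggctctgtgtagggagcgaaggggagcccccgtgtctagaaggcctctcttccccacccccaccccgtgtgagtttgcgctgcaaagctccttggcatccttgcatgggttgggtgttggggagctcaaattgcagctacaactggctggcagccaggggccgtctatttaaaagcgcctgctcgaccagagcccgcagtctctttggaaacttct
The *Igfbp2* window held 3 matches, at -113, -98 and -37 from the start, and 67.2% G and C. The *Igfbp5* window held none and 58.8% G and C. RefSeq lists a further start for *Igfbp2*, whose window held none. The motifs below were searched on both strands in windows of 300 bases around all 32851 promoters. GGGCGG was in 35.7% of them and in 4 of the 10 IGF genes. TATAAA (the letters of the TATA box) was in 13.6% and 2 of 10, and CCAAT (those of the CCAAT box) in 37.4% and 3 of 10. The TATAAA matches were at -28 on the gene's own strand in *Igfbp4* and at -148 on the opposite strand in *Igfbp6*. The percentages count promoters. The 10 genes have 14 promoters, and a gene was counted if any of its promoters held the motif, so the units differ. The motifs do not overlap in letters, and a match describes the sequence only.

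*Igfbp3*, which codes for the main carrier of IGFs in blood, was higher on both probes. Probe 1 gave 12888 ± 1289 and 15155 ± 1515, a log2 fold change of 0.43 ± 0.20. Probe 2, named for another transcript record, gave 59.3 ± 6.67 and 96.5 ± 10.03, a log2 fold change of 0.89 ± 0.22. The mean was 0.66 ± 0.15 (1.58-fold higher), and the brighter probe alone was under 1.5-fold. *Igfbp1*, the neighbour of *Igfbp3* on chromosome 11 and a liver product that insulin represses, was not well above background on either array. Its probe (chr11:7102442-7102501) read 3.06 and 2.72, and no fold is given.

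The other binding proteins were lower by less than 1.5-fold. *Igfbp4*, whose product blocks IGF action until it is cleaved, gave 119 ± 12.3 and 80.3 ± 8.49 (chr11:98913334-98913393), and 48.2 ± 5.72 and 36.5 ± 4.55 (chr11:98909591-98909650). Its mean log2 fold change was -0.29 ± 0.16. *Igfbp6*, whose product prefers IGF2, was at 26804 ± 2680 and 17956 ± 1796 (chr15:101979852-101979911), a log2 fold change of -0.39 ± 0.20. *Igfbp7* was at 23443 ± 2344 and 17649 ± 1765 (chr5:77778355-77778414), a log2 fold change of -0.22 ± 0.20. Of the 6 binding proteins measured, 2 were thus higher and 4 lower for siRNA-*Ppp2r5d*.

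**Figure D2:**
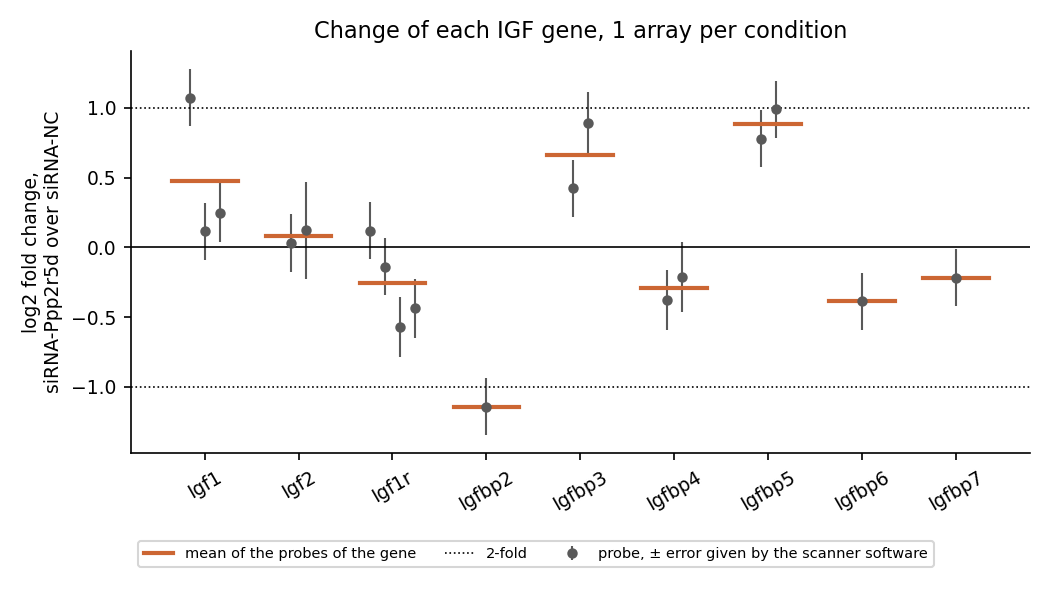
Log2 fold change (siRNA-*Ppp2r5d* over siRNA-NC) of each IGF gene by role, with its probes as separate points and the mean over probes. *Igfbp2* lies at -1.14 and *Igfbp5* at 0.88, and the *Igf1* and *Igf1r* probes spread most.

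**Figure D3:**
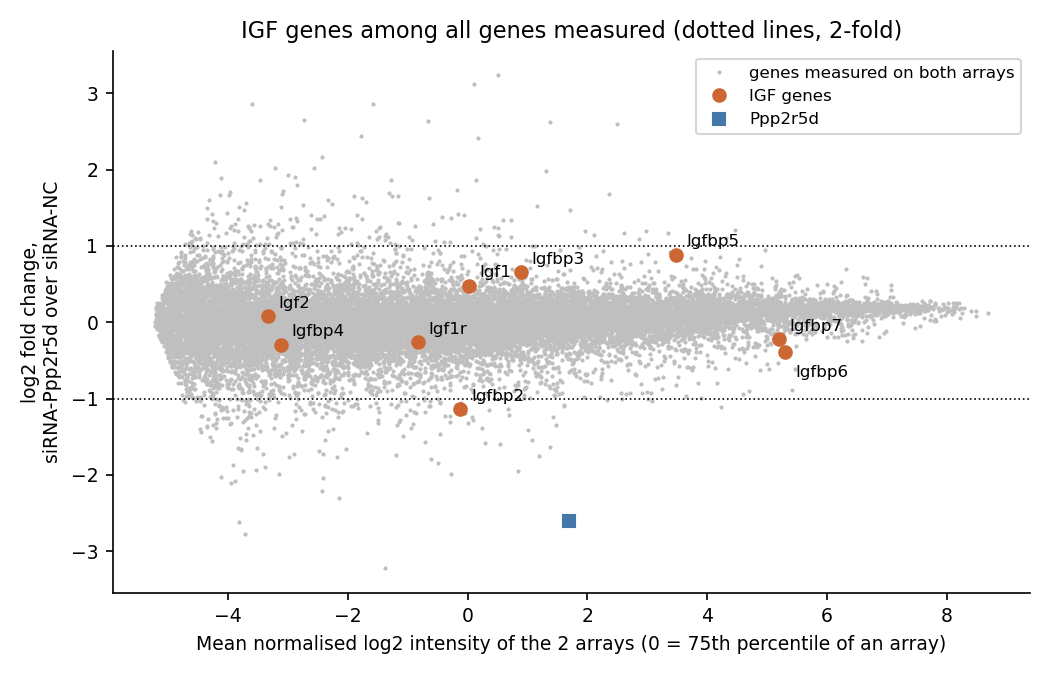
Log2 fold change against mean normalised log2 intensity for the 20311 genes measured on both arrays (grey), with the IGF genes and *Ppp2r5d* marked and 2-fold shown by dotted lines. *Igfbp2* is the one IGF gene outside the lines, and *Igfbp5* sits at the upper edge of genes of its brightness.

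In 5 of the 6 members with more than 1 probe every probe lay on the same side of 0, *Igf1r* being the exception, as the plot by role shows. Which members split depends on the processing. With spike-in scaling every *Igf1r* probe was below 0, and the *Igf1* variant 2 probe was at -0.097 with the other *Igf1* probes above 0. After normexp correction the *Igfbp4* probes were at 0.015 and -0.21. Of the 2449 genes at least as bright as *Igfbp5* in mean normalised intensity (a measure of precision here, not of transcript level), 4 had a log2 fold change at least as high, *Igfbp5* included. Both cuts were set at the gene's own values and made for this member alone, so the count describes its place and tests nothing. Its brightness is a mean over probes that read 35842 and 665 in the control. Cell type markers are given here beside these differences, and their part in them was not tested. In a bulk culture fewer cells of a type and less RNA per cell cannot be told apart. The level of a list was summed over the brightest probe of each gene, in units of the 75th percentile of the array. Cardiomyocyte markers summed to 16.4 in the control and 17.4 in the knockdown, and of the 8 measured 6 were above 0, with a median log2 fold change of 0.25. *Myl3* (0.90 ± 0.24), *Ttn* (0.89 ± 0.10) and *Nppa* (0.62 ± 0.38) were past 1.5-fold higher and none was past it lower. Of all genes 3.79% were past it higher and 5.38% lower. The *Nppa* probe, at 16.6 and 22.4, lay close to the lowest signal well above background. *Actc1*, which made up most of the sum, was at -0.099. Fibroblast markers summed to 657 and 715, with 4 above 0 and 4 below and a median of 0.035. *Lum* (1.08) and *Pdgfra* (0.62) were the highest of these and *Col1a2* (-0.31) the lowest, and *Thy1* and *Tcf21* were not above background. Smooth muscle markers, 4 of 4 measured, summed to 239.8 and 250.3, most of it *Acta2*, which was at -0.021. The others were apart from it and from each other, *Cnn1* at 2.41, *Tagln* at 0.85 and *Myh11* at -0.38. Macrophage and leukocyte markers, 4 of 5 measured and *Adgre1* not, summed to 6.78 and 5.05. They did not go together, with *Cd68* at -0.77 and *Lyz2* at -0.68 but *Csf1r* at -0.065 and *Ptprc* at 0.13. The *Ptprc* value rests on 1 of its 7 probes, and the others were not well above background on either array. A further *Lyz2* probe was well above background for siRNA-NC alone (28.5 and 9.16). Of 6 endothelial markers *Pecam1* alone was measured on both arrays (-0.23), and *Cdh5*, *Kdr*, *Vwf* and *Emcn* on neither, with sums of 0.156 and 0.155. *Tek* was well above background for siRNA-*Ppp2r5d* alone (8.39 and 18.7).

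With the probes of a gene averaged, the wider pathway held no gene past 2-fold. Of 48 further genes 36 were measured on both arrays and 12 on neither. This was 0 of 36 genes, against 2.44% of all genes, and at 1.5-fold *Igf2bp2* and *Nov* were higher and *Kazald1* lower, against 9.17% (3.79% higher and 5.38% lower). The signs were split, 18 above 0 and 18 below, with a median log2 fold change of -0.0033, as in the plot of the pathway lists.

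Among ligands and receptors of the insulin family 2 of 5 were measured. *Igf2r*, which clears IGF2, was at 2341 and 2289 (log2 fold change 0.16), and *Insr*, the insulin receptor, at 127 and 106 (-0.072). Neither differed by more than the error of a spot. Of the binding protein partners and proteases 5 of 8 were measured, with a median of 0.074. *Adam12*, a protease that cleaves IGFBP3 and IGFBP5, was highest at 0.50. *Pappa2*, which also cleaves these binding proteins, was lowest at -0.011 over the 2 probes measured on both arrays. A further *Pappa2* probe, for a predicted variant, was well above background for siRNA-NC alone (20.6 and 2.77).

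Relatives that share the IGF binding domain had the lowest median, -0.33, with 6 of 9 measured. *Nov*, a matricellular CCN protein gene, was at 4453 ± 445 and 7385 ± 738 (log2 fold change 0.92 ± 0.20). *Kazald1*, which codes for a secreted protein with a Kazal domain, was at 2964 ± 296 and 1524 ± 152 (-0.77 ± 0.20). This group held the widest span of the pathway. Of the adaptors and the PI3K-AKT relay 20 of 22 were measured, with a median of -0.028. Their extremes were *Pik3cb*, a PI3K catalytic subunit, at -0.35 and *Foxo3*, a transcription factor that AKT restrains, at 0.31. Of the *Igf2* locus and the proteins that bind *Igf2* mRNA 3 of 4 were measured, with a median of 0.062. *Igf2bp2* gave 895 ± 89.6 and 1576 ± 158 on 1 probe, a log2 fold change of 1.01, just past 2-fold. Its other probe gave 494 ± 49.5 and 816 ± 81.6, a log2 fold change of 0.91. The mean was 0.96, while the paralogue *Igf2bp3* was at -0.26.

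**Figure D4:**
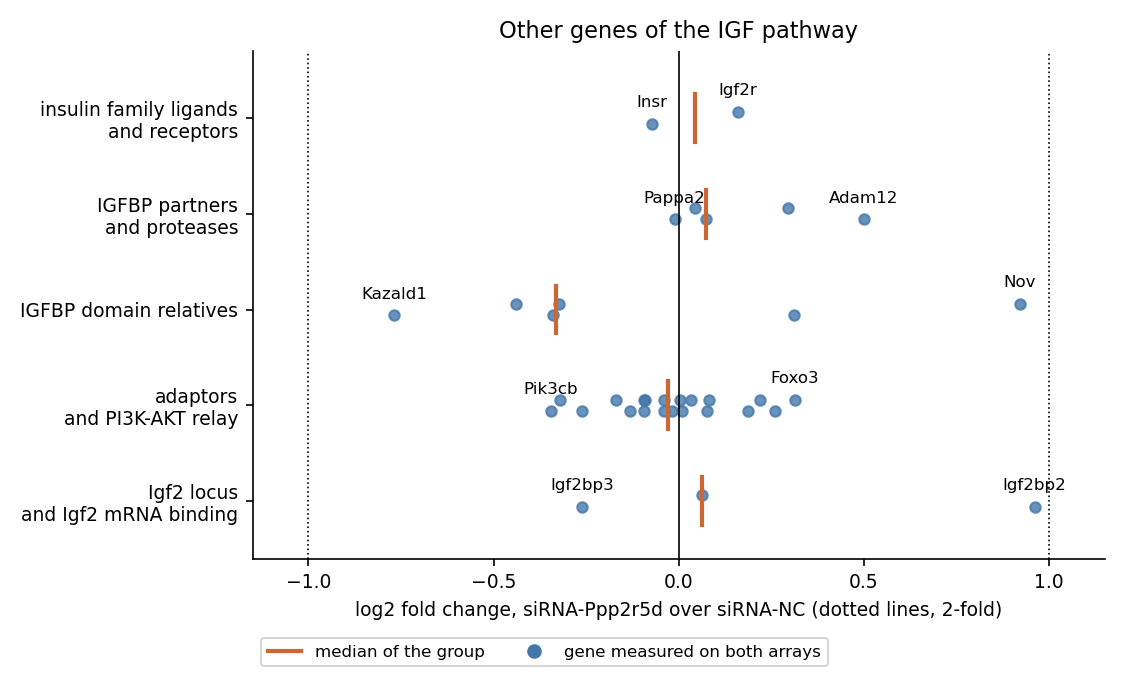
Log2 fold change of the 36 further IGF pathway genes measured on both arrays, by list, with the median of each list as a bar and the highest and lowest gene named. *Igf2bp2* (0.96), *Nov* (0.92) and *Kazald1* (-0.77) stand out, and the PI3K-AKT relay stays between -0.35 and 0.31.

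The members' differences were then set beside those under 8 other ways of processing the same spots. These were not 8 separate checks. Lifting the filter on dim probes left every measured member unchanged, and keeping outlier spots barely moved any. The deposited log2 values nearly repeat quantile normalization, and taking the brightest probe cannot move a member with 1 probe. *Igfbp2* stayed the lowest and, unless the brightest probe stood for *Igf1*, *Igfbp5* the highest of the 9 genes.

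**Figure D5:**
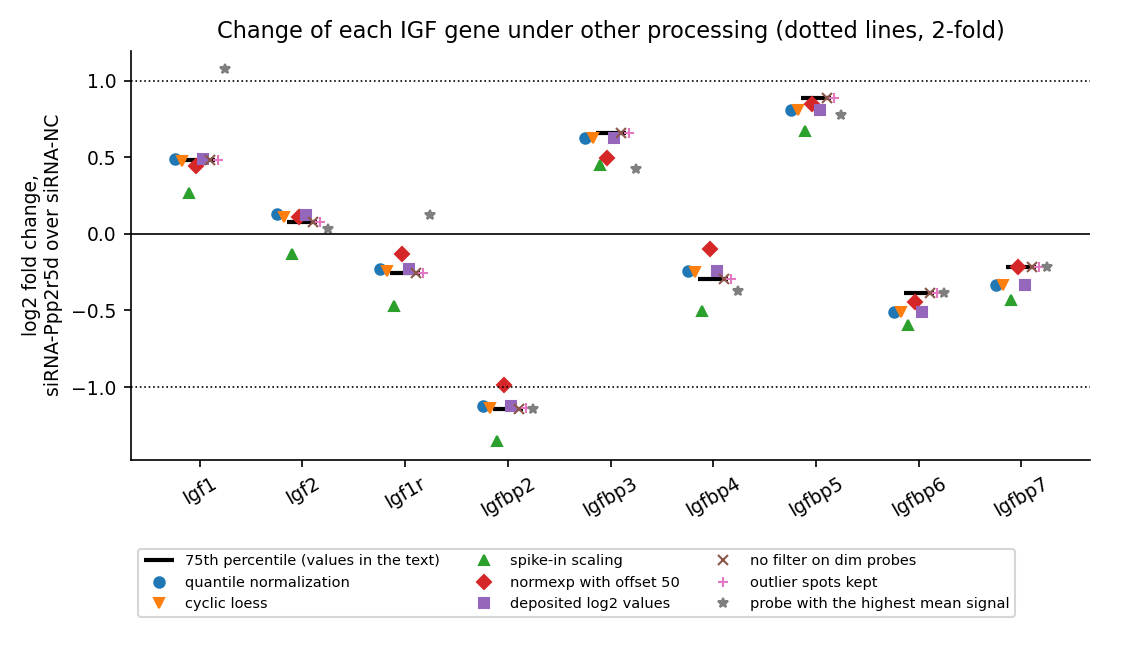
Log2 fold change of the 9 measured IGF genes with the values in the text (black bars) and under 8 other ways of processing; dotted lines are 2-fold. *Igfbp2* runs from -1.35 to -0.99 and *Igfbp5* from 0.67 to 0.89, while *Igf1* reaches 1.07 with its brightest probe.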

How the data were processed

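RNA of MCMs was measured on 2 single-colour arrays, siRNA-NC and siRNA-*Ppp2r5d*, grouped by the sample labels. The authors deposited the intensity of every spot from Feature Extraction 10.7.1.1, corrected for background and not scaled between arrays, with the software's error. They also deposited log2 values for 56605 probes, which lay within a median of 0.000127 of a quantile normalization computed here and served as an alternative. Control spots and outlier spots (226 and 188) were left out, the 75th percentile of log2 intensity of each array was subtracted, and a gene's probes were averaged over those both arrays measured well above background. No test was run, because each condition had 1 array, and the arrays' number limits the precision.

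The members and gene lists were chosen with earlier results of these data known. The genes named are all 10 members, *Ppp2r5d*, and in each pathway list those past 2-fold and the highest and lowest. The sequences shown, the motifs and the other IGF-named genes were chosen after values were seen. All 10 members matched RefSeq symbols, as did 23666 of 37074 array names. The alternatives were quantile normalization, cyclic loess, spike-in scaling (8 probes), normexp with an offset of 50, the deposited log2 values, no filter on dim probes, outlier spots kept, the brightest probe per gene, and a 1.5-fold threshold. Python 3.11.15, NumPy 2.4.6, pandas 2.3.3, matplotlib 3.10.9, R 4.3.3 and limma 3.58.1 were used. The steps were tested on simulated data, which hold no spread between cultures and say nothing of it.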

Additional observations from a re-analysis of the deposited data

How the results depend on the processing

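The number of IGF genes past 2-fold, 1 with the values in the text, was 3 at a 1.5-fold threshold, 0 after normexp correction and 2 (*Igf1* and *Igfbp2*) with the brightest probe per gene, and stayed at 1 under the other 6 alternatives. Of these 6, lifting the filter left the measured members unchanged, and the deposited values nearly repeat quantile normalization. For the pathway the same 36 genes, those measured on both arrays, were counted under every alternative, also with the filter lifted. The number past 2-fold was 0, then 3 at 1.5-fold and 1 (*Igf2bp2*) with the brightest probe. Over all genes 219 were higher and 308 lower, 58.4% lower; the counts were 819 and 1165 at 1.5-fold, 122 and 619 (83.5% lower) with spike-in scaling, 62 and 44 (41.5% lower) with normexp, and 937 and 1106 without the filter, which let 37000 genes in. *Ppp2r5d* was at -2.82 with spike-in scaling and -2.49 with normexp. The median of the IGF genes was -0.43, -0.099 and 0.034 with spike-in scaling, normexp and the brightest probe. Spike-in scaling moved the median of all genes by -0.21, a shift common to every member. The lower fold threshold admits more genes by construction, and so does the lifted filter over all genes. For the other alternatives the cause was not tested. Over the 8 alternatives of processing *Igfbp2* ranged from -1.35 to -0.99, *Igfbp5* from 0.67 to 0.89, *Igfbp3* from 0.43 to 0.66 and *Igf1* from 0.27 to 1.07. *Igf2* changed sign with spike-in scaling (-0.13) and *Igf1r* with the brightest probe (0.12), and the other 7 members kept theirs, as the plot of alternatives shows. No paired analysis was possible because each condition had 1 array, and for the same reason no replicate could be left out. Dim probes were the least precise: the median SD between spots was 0.21 for 6 probes of intensity up to 100, 0.059 for the 11 next brighter and 0.035 for the 276 brightest.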

Other observations

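Genes named for IGFs outside the family were picked after their values were seen. *Igflr1*, a receptor for IGF-like proteins, gave 1732 ± 173 for siRNA-NC and 1014 ± 101 for siRNA-*Ppp2r5d*. After scaling its log2 fold change was -0.58 ± 0.20 (1.49-fold lower), just under the 1.5-fold threshold. *Igf1os*, an antisense transcript named for *Igf1*, was level at 63.2 ± 7.03 and 61.5 ± 6.73. *Igf2os*, antisense to *Igf2*, and *Igfl3* were not well above background on either array.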
